A study of Mus musculus with 12 samples.

Results

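The genes described here encode the lipases of the fat cell, their partners and the enzyme that restrains hormone-driven lipolysis. They were chosen by symbol: of 9 listed symbols, 7 had a probe set that carried that symbol alone in the platform annotation, out of 18194 genes so represented on the array. The 7 were Pnpla2, Abhd5, Ces1d, Lipe, Mgll, Aqp7 and Pde3b. The beta-adrenergic receptor genes Adrb1 and Adrb3, which were also listed, had no single-symbol probe set in the annotation and were not analysed here. All 7 genes passed the filter on dim signals.

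Lipolysis is the stepwise release of fatty acids from the triglyceride of lipid droplets. Adipose triglyceride lipase, encoded by Pnpla2 and activated by its partner CGI-58 (Abhd5), removes the first fatty acid. Hormone-sensitive lipase (Lipe) acts on the resulting diglyceride and monoglyceride lipase (Mgll) on the monoglyceride, and the glycerol leaves the cell through the channel aquaporin 7 (Aqp7). Noradrenaline starts the process through beta-adrenergic receptors, adenylyl cyclase, cyclic AMP and protein kinase A. Insulin restrains it, in large part through phosphodiesterase 3B (Pde3b), which degrades cyclic AMP. White fat exports the fatty acids, whereas brown fat also burns them for heat.

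Total RNA of mouse cell lines was hybridized to 12 Affymetrix expression arrays, 3 for each of 4 groups. The white preadipocytes were 3T3-L1 cells, an established line of white-type fat precursors, taken at day 0. The white adipocytes were 3T3-L1 cells at day 10, induced for 3 days with 0.5 mM IBMX, 1 µM dexamethasone and 1 µg/mL insulin, then kept in insulin and finally in plain growth medium. The brown preadipocytes were undifferentiated brown fat cells at day 0, titled BFC and described as a cell line whose origin the labels do not give. The brown adipocytes were such cells at day 8, induced for 3 days with 0.5 mM IBMX, 125 µM indomethacin, 1 µM dexamethasone, 20 nM insulin and 1 nM T3, and then held in insulin and T3. IBMX is itself an inhibitor of phosphodiesterases, dexamethasone is a glucocorticoid, indomethacin inhibits cyclooxygenase, and T3 is thyroid hormone. Brown adipocytes were thus harvested in insulin and T3, and white adipocytes in neither. Line, induction mix, serum, later medium and day of harvest differed together, so their parts in any difference between the lines cannot be told apart. The labels do not say whether the 3 arrays of a group came from separate cultures, so the p-values measure only the spread between these arrays.

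Signals are linear intensities in array units, scaled by the authors to 1 common level per array, and they rank arrays within a probe set, not genes against each other. Changes were computed on the log2(signal + 16) scale and tested with limma over 13746 genes, with Benjamini-Hochberg adjusted p-values, and a gene was called at an adjusted p under 0.05. A signal counts as dim below the 40th percentile of its array, which lay between 32.9 and 41.2. Adipocyte markers were set against the labels. The summed signal of 6 such markers was 8498 to 9327 in white preadipocytes, 104697 to 118472 in white adipocytes, 47692 to 56314 in brown preadipocytes and 85854 to 89332 in brown adipocytes. In the arrays labelled brown preadipocyte all 6 markers were above the dim level, and Adipoq (adiponectin) stood at 18695 ± 2319 (SD, n = 3), against 31.9 ± 16.4 in white preadipocytes. Of 6 brown fat markers, Ucp1 (382 ± 74.5) and Cidea (6754 ± 337) were highest in brown adipocytes, as were Prdm16 and Ppargc1a, which brown preadipocytes already held at 428 ± 39.7 and 601 ± 17.9. Cox8b was 3685 ± 594 in brown and 5065 ± 649 in white adipocytes, and Dio2 lay near the dim level in all groups, at means of 36.8 to 42.7. Of 4 preadipocyte markers, Dlk1 was 6452 ± 809 in white preadipocytes and 779 ± 67.7 in white adipocytes. In brown preadipocytes Dlk1 was 981 ± 28.6, and in brown adipocytes 31.8 ± 0.309. Pdgfra was 2595 ± 138 and 2970 ± 269 in white preadipocytes and adipocytes and 5514 ± 349 and 131 ± 15.3 in brown ones. Cd34 had means between 15.9 and 110, and Dpp4 between 20.8 and 44.8. None of 5 endothelial markers was above the dim level in any group. Of 6 macrophage markers, Ptprc and Itgam were dim in all 4 groups. Adgre1, Cd68 and Csf1r had means between 35.1 and 127, and Lyz2 was 870.2 ± 95.8 and 492 ± 41.6 in white preadipocytes and adipocytes and 46.5 ± 4.48 and 15.0 ± 10.7 in brown ones. For beta-actin, the signal at the 3' end over that at the 5' end was 1.40 ± 0.0554 in white preadipocytes, 2.25 ± 0.151 in white adipocytes, 1.49 ± 0.0626 in brown preadipocytes and 2.42 ± 0.0478 in brown adipocytes (SD, n = 3). The same ratio for Gapdh was 0.861 ± 0.0342, 0.828 ± 0.00689, 0.775 ± 0.0296 and 0.814 ± 0.0189 in the same order. Those for pyruvate carboxylase were 3.63 ± 0.693, 7.64 ± 1.83, 5.70 ± 0.902 and 6.80 ± 0.763, and those for the transferrin receptor 1.77 ± 0.418, 3.82 ± 2.40, 1.41 ± 0.190 and 1.75 ± 0.0409. The part of these markers and control ratios in the changes below was not tested.

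Differentiation raised all 7 genes, in the white and in the brown line alike. In white cells all 7 were called higher, where 30.0% of all genes tested were called higher and 31.2% lower, and their median log2 change was 4.81 against 0.02 for all genes. In brown cells all 7 were again called higher, against a background of 27.2% higher and 31.5% lower, and their median was 3.48 against −0.03 for all genes. The count in each line includes Ces1d, which was dim on every preadipocyte array and passed the filter only through its adipocyte arrays. Ces1d could therefore only be called higher, and its calls add no support to these counts. Both comparisons concern bulk RNA, in which more fat-laden cells and more RNA per cell cannot be told apart.

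**Figure D1:**
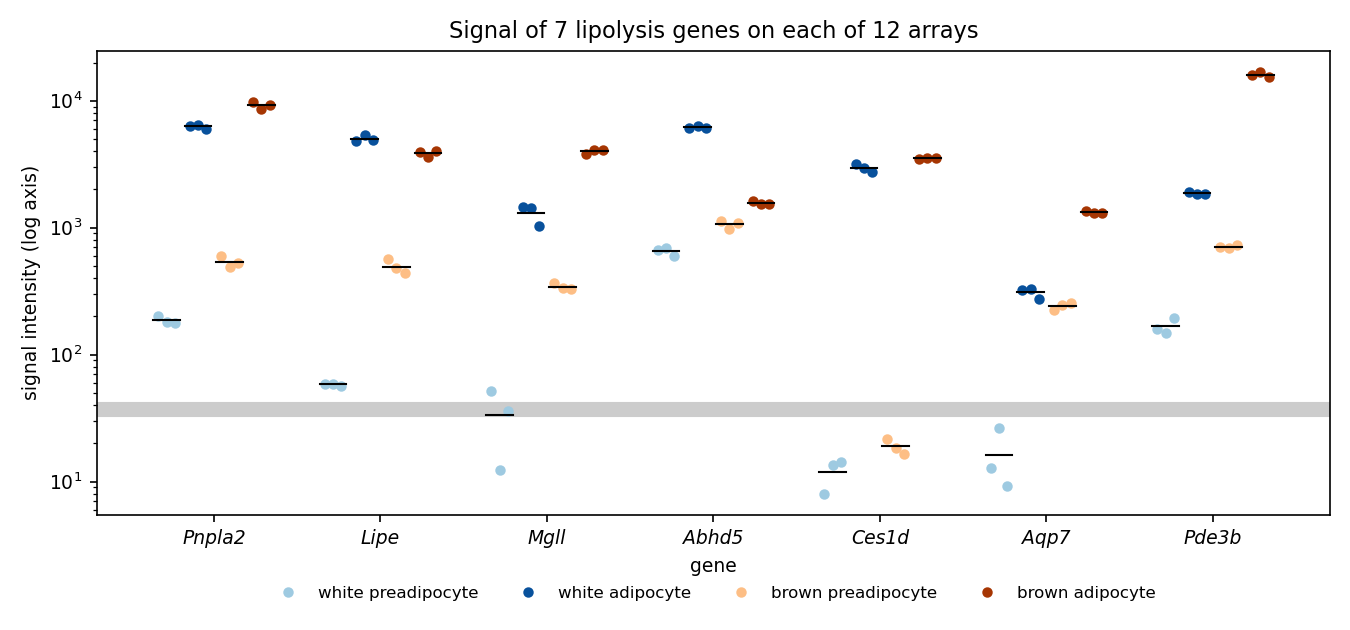
Array signal (log10 axis, array units) of the 7 lipolysis genes in the 4 groups, 1 point per array and 3 arrays per group, with a short line at each group mean and a grey band marking the range of the 40th percentile over the arrays. Adipocyte points lie above the preadipocyte points of their own line for every gene, and the brown preadipocyte points lie above the white preadipocyte points.

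Pnpla2, which encodes the lipase of the first step, gave signals of 203, 181 and 178 on the white preadipocyte arrays and 6347, 6487 and 5980.2 on the white adipocyte arrays. In brown cells the signals were 598, 489 and 523 before and 9849.7, 8603 and 9308 after differentiation. No array of one group overlapped with another group, and the order from low to high was white preadipocyte, brown preadipocyte, white adipocyte, brown adipocyte. The rise was 4.95 on the log2 scale in white cells (SE 0.0891, adjusted p = 5.24e-11), the 79th highest change of the 13746 genes, and 4.07 in brown cells (SE 0.0891, adjusted p = 3.64e-10), the 41st highest.

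Abhd5, the coactivator of that lipase, followed another course. Its signals were 662, 691 and 600.2 in white preadipocytes and 6132, 6299 and 6061 in white adipocytes. In brown preadipocytes they were 1126, 973 and 1094, and in brown adipocytes 1614, 1531 and 1528. The groups did not overlap, but the brown adipocyte arrays lay close above the brown preadipocyte arrays and far under the white adipocyte arrays. The log2 rise was 3.21 in white cells (SE 0.0744, adjusted p = 2.28e-10) and 0.55 in brown cells (SE 0.0744, adjusted p = 0.000109). By size of rise Abhd5 was 245th of 13746 genes in white cells and 2930th in brown cells.

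The stretches upstream of the transcript starts of Pnpla2 and Abhd5 are shown because these genes are partners of 1 reaction. They rose by 4.95 and 3.21 in white cells and by 4.07 and 0.55 in brown cells. The stretches are the 250 bases before each start, from RefSeq on GRCm38.p6, on the plus strand and written 5′ to 3′. Capitals mark matches on either strand to GGGCGG (a GC box), AGGTCA (a nuclear receptor hexamer) and TGACG (the core of a cyclic AMP response element). In the Pnpla2 window, at chr7:141454938-141455187, GGGCGG began 109 bases before the start and, on the other strand, 26 bases before it. In the Abhd5 window, at chr9:122351366-122351615, GGGCGG lay at 136 bases, TGACG at 128 bases and AGGTCA, on the other strand, at 69 bases before the start.
Pnpla2: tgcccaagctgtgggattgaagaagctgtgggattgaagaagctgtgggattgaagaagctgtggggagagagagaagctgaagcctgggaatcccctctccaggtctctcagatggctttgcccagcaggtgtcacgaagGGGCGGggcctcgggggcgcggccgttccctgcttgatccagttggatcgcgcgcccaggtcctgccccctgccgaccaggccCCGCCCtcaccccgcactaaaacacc
Abhd5: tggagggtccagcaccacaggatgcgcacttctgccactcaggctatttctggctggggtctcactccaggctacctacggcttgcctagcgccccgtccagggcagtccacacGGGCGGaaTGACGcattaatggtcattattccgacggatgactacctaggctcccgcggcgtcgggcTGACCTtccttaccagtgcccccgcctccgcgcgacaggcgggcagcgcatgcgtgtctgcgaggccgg
Such matches are common. Among 32851 windows of the same length, GGGCGG occurred in 32.7%, TGACG in 17.8% and AGGTCA in 14.0%. A match is a description of the letters and not evidence of a site. The Pnpla2 window was 63.2% G and C and the Abhd5 window 64.8%, against a median of 52.4% over all windows. Neither window held TATAAA (12.4% of all windows), CCAAT (33.8%) or the E-box CACGTG (6.02%). In all, 5 of the 7 genes matched 8 windows, and the 6 windows of Lipe, Mgll and Aqp7, which overlap annotated genes, are not printed.

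Ces1d, a carboxylesterase with triacylglycerol hydrolase activity, went from dim to bright in both lines. Its signals were dim before differentiation, at 8.01, 13.6 and 14.3 in white preadipocytes and 21.8, 18.3 and 16.6 in brown preadipocytes. They reached 3174, 2977 and 2749.9 in white adipocytes and 3450.5, 3529 and 3550.0 in brown adipocytes. The adipocyte arrays of both lines thus lay close together, with the lowest brown array above the highest white array. The log2 rise was 6.74 in white cells (SE 0.0994, adjusted p = 2.05e-11) and 6.66 in brown cells (SE 0.0994, adjusted p = 8.01e-11). Because all 6 preadipocyte arrays were dim, the pseudocount sets these sizes: with 1 in place of 16 they were 7.87 and 7.47, and with 64 they were 5.32 and 5.43. Taken against the dim level of each preadipocyte array, the signal was at least 88.7-fold higher in white and at least 89.4-fold higher in brown adipocytes. Ces1d belongs to a cluster of closely similar carboxylesterase genes. The probe set used here is of a design that can bind more than 1 transcript, and binding to transcripts of other genes was not tested. Those used for Pnpla2, Mgll and Aqp7 are also of such less specific designs.

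Lipe, which encodes hormone-sensitive lipase, gave 59.1, 59.1 and 57.1 in white preadipocytes and 4840.5, 5338 and 4868 in white adipocytes. In brown cells its signals were 565, 479 and 437 before and 3917, 3605 and 4008 after differentiation. The brown preadipocyte arrays lay well above the white ones, while among adipocytes the white arrays were the higher, without overlap. The log2 rise was 6.08 in white cells (SE 0.0918, adjusted p = 2.40e-11) and 2.93 in brown cells (SE 0.0918, adjusted p = 2.77e-09).

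Mgll, which encodes the lipase of the last step, varied most among the white preadipocyte arrays, with signals of 52.1, 12.4 and 35.7 around the dim level. White adipocytes gave 1445, 1425 and 1027. Brown cells went from 368, 337 and 326 to 3821, 4071 and 4088. The groups did not overlap. The log2 rise was 4.81 in white cells (SE 0.266, adjusted p = 9.26e-08) and 3.48 in brown cells (SE 0.266, adjusted p = 1.43e-06).

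Aqp7, the glycerol channel, was dim in white preadipocytes, at 12.7, 26.4 and 9.28, and gave 323, 329 and 277 in white adipocytes. Its signals in brown preadipocytes were already 223, 244 and 253, and in brown adipocytes they were 1361, 1299 and 1315. The brown preadipocyte arrays thus came close under the white adipocyte arrays, without overlap. The log2 rise was 3.37 in white cells (SE 0.162, adjusted p = 3.17e-08) and 2.39 in brown cells (SE 0.162, adjusted p = 5.92e-07). Against the dim level, the signal was at least 9.23-fold higher in white adipocytes than in white preadipocytes.

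Pde3b, the phosphodiesterase on which insulin acts, rose more steeply in the brown line than in the white line. White preadipocyte arrays gave 158, 149 and 196 and white adipocyte arrays 1919, 1838 and 1854. In brown cells 699, 689 and 735 became 15844, 16889 and 15519. All 3 brown adipocyte arrays lay far above every other array, and the remaining groups did not overlap. The log2 rise was 3.37 in white cells (SE 0.0897, adjusted p = 5.26e-10) and 4.48 in brown cells (SE 0.0897, adjusted p = 2.60e-10), the 213th and the 26th highest of all genes. Pde3b had 1 probe set, so no other measures its transcript here.

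The difference between the lines in their response was tested as an interaction, the brown change minus the white change. Of the 7 genes, 5 were called lower, 1 higher and 1 was not called, against 27.4% lower and 23.6% higher among all genes, and their median was −0.98 against −0.05. All 6 adipocyte markers also had a lower interaction, from −8.95 for Adipoq to −1.88 for Fabp4, and their part in these values was not tested. The brown rise was the smaller for Lipe (interaction −3.15, SE 0.130, adjusted p = 4.28e-08) and for Abhd5 (−2.67, SE 0.105, adjusted p = 3.41e-08). It was larger for Pde3b, by 1.10 (SE 0.127, adjusted p = 4.75e-05). These 3 calls held in every alternative processing that gave a value.

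The other interaction values were smaller or depended on the processing. Pnpla2 gave −0.88 (SE 0.126, adjusted p = 0.000218), Aqp7 −0.98 (SE 0.229, adjusted p = 0.00476) and Mgll −1.33 (SE 0.376, adjusted p = 0.0135). The Aqp7 value was −0.03 with a pseudocount of 64 (adjusted p = 0.862), and that of Mgll was −0.50 (adjusted p = 0.0718). When the probe sets of each gene were averaged, Mgll gave −0.45 (adjusted p = 0.144) and Pnpla2 −0.44 (adjusted p = 0.146). For Ces1d the lines were not told apart (−0.08, SE 0.141, adjusted p = 0.672), and the sign turned under several alternatives.

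**Figure D2:**
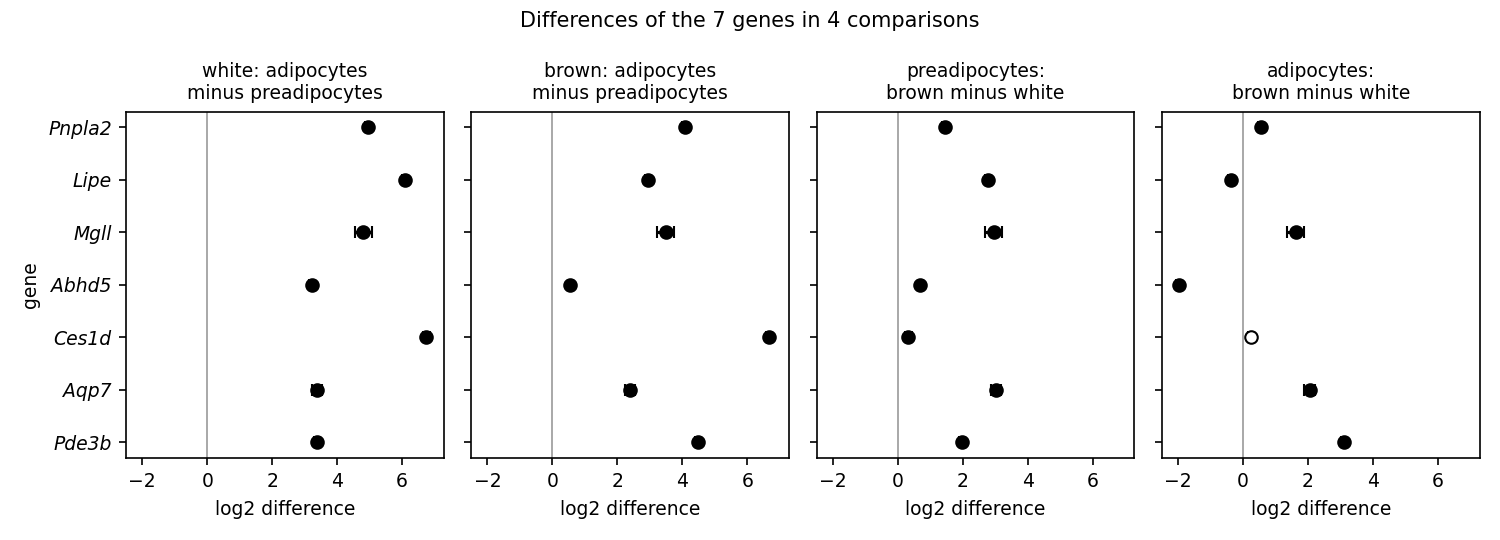
Log2 difference of each lipolysis gene in the 4 comparisons between groups, with bars of 1 SE. Filled points passed an adjusted p under 0.05 and open points did not. Both differentiation changes and the preadipocyte difference lie above 0 for all 7 genes, while between adipocytes Abhd5 and Lipe lie under 0 and Ces1d is open. Ces1d is dim in both preadipocyte groups.

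The levels before differentiation also differed between the lines. Among preadipocytes 6 genes with signal above the dim level in at least 1 line were called higher in the brown line, against 31.1% higher and 23.8% lower of all genes. The median difference of all 7 was 1.99 against 0.07. The difference was 3.03 for Aqp7 (SE 0.162, adjusted p = 1.61e-07; at least 7.17-fold against the dim level of the white arrays), 2.95 for Mgll (SE 0.266, adjusted p = 6.67e-06) and 2.77 for Lipe (SE 0.0918, adjusted p = 6.55e-09). It was 1.99 for Pde3b (SE 0.0897, adjusted p = 5.14e-08), 1.44 for Pnpla2 (SE 0.0891, adjusted p = 4.62e-07) and 0.70 for Abhd5 (SE 0.0744, adjusted p = 2.31e-05). The arrays labelled brown preadipocyte also carried the adipocyte markers given above, whose part in these differences was not tested. Ces1d was dim on all 6 preadipocyte arrays, so its fitted difference, 0.32 (adjusted p = 0.0185), is one between dim signals and was not counted. The call was also lost without white preadipocyte replicate 1 (adjusted p = 0.0604) or brown preadipocyte replicate 1 (adjusted p = 0.0712).

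Between the adipocytes of the lines, 4 genes were called higher in brown cells, 2 lower and 1 was not called, against 30.0% higher and 29.5% lower of all genes. Their median difference was 0.56 against 0.00 for all genes. Pde3b was higher in brown adipocytes by 3.09 (SE 0.0897, adjusted p = 1.62e-09), Aqp7 by 2.05 (SE 0.162, adjusted p = 1.78e-06), Mgll by 1.62 (SE 0.266, adjusted p = 0.000371) and Pnpla2 by 0.56 (SE 0.0891, adjusted p = 0.000313). The 2 genes lower in brown adipocytes were Abhd5 (−1.97, SE 0.0744, adjusted p = 8.50e-09) and Lipe (−0.38, SE 0.0918, adjusted p = 0.00442). With the probe sets that stood for the genes, the lipase Pnpla2 and its coactivator Abhd5 thus differed in opposite directions between the adipocytes of the lines. The other Pnpla2 probe set did not tell these adipocytes apart (0.61, adjusted p = 0.180). The other tested Abhd5 probe set gave a smaller difference in the same direction (−0.93, adjusted p = 2.17e-06), as did that of Aqp7 (1.22, adjusted p = 0.0094). The Lipe difference was no longer called when arrays were scaled to the hybridization controls (−0.22, adjusted p = 0.0741) or when probe sets were averaged (−0.24, adjusted p = 0.160). Ces1d differed by 0.24 (SE 0.0994, adjusted p = 0.0573). It was called without white preadipocyte replicate 1 (adjusted p = 0.0212) or white adipocyte replicate 1 (adjusted p = 0.0493), within 0.00369 to 0.294 over all alternatives but single probe sets.

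Array-wide scaling bears on all of these directions. Scaled to the hybridization controls, the median over all genes went from 0.02 to −0.23 in white differentiation and from −0.03 to −0.20 in brown differentiation. The share of calls that were higher then went from 49.1% to 33.8% in white and from 46.3% to 33.2% in brown cells, and from 50.5% to 61.3% between adipocytes, where the median moved from 0.00 to 0.14. With equal medians it went from 56.7% to 38.2% between preadipocytes, where the median moved from 0.07 to −0.15. The differentiation rises of all 7 genes kept their call under each of these scalings.

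The 7 genes were covered by 17 probe sets, of which 14 were bright enough to test. Every tested probe set rose in both lines, but several disagreed on size. The other tested probe set of Abhd5 gave 635, 602, 554 and then 3343, 3117, 3116 in white cells, a log2 rise of 2.39 (SE 0.0741, adjusted p = 1.93e-09), and 1109, 1049, 1063 and then 1669.5, 1582, 1736 in brown cells, a rise of 0.62 (SE 0.0741, adjusted p = 4.73e-05). Its interaction was −1.77 (SE 0.105, adjusted p = 5.83e-07), smaller than with the probe set used above and in the same direction. The other probe set of Aqp7 rose by 2.72 in white cells (SE 0.330, adjusted p = 4.43e-05) and by 1.09 in brown cells (SE 0.330, adjusted p = 0.0179), with an interaction of −1.63 (SE 0.466, adjusted p = 0.0161).

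For Pnpla2, Mgll and Ces1d the probe sets did not give 1 answer on the lines. The dimmer probe set of Pnpla2 rose by 2.43 in white and 2.42 in brown cells, an interaction of −0.01 (adjusted p = 0.991), and it did not tell apart the adipocytes (0.61, adjusted p = 0.180) or the preadipocytes (0.62, adjusted p = 0.185) of the lines. The other tested probe sets of Mgll gave interactions of −0.21 (adjusted p = 0.532) and 0.10 (adjusted p = 0.851). The Ces1d probe set of the most specific design rose by 6.13 in white cells (SE 0.374, adjusted p = 2.41e-07) and by 5.60 in brown cells (SE 0.374, adjusted p = 6.48e-07). A further Ces1d probe set rose by 4.48 and 5.54, with 1 brown adipocyte array at 1964 beside 732 and 797 on the others. One probe set each of Abhd5, Lipe and Mgll was too dim to test.

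**Figure D3:**
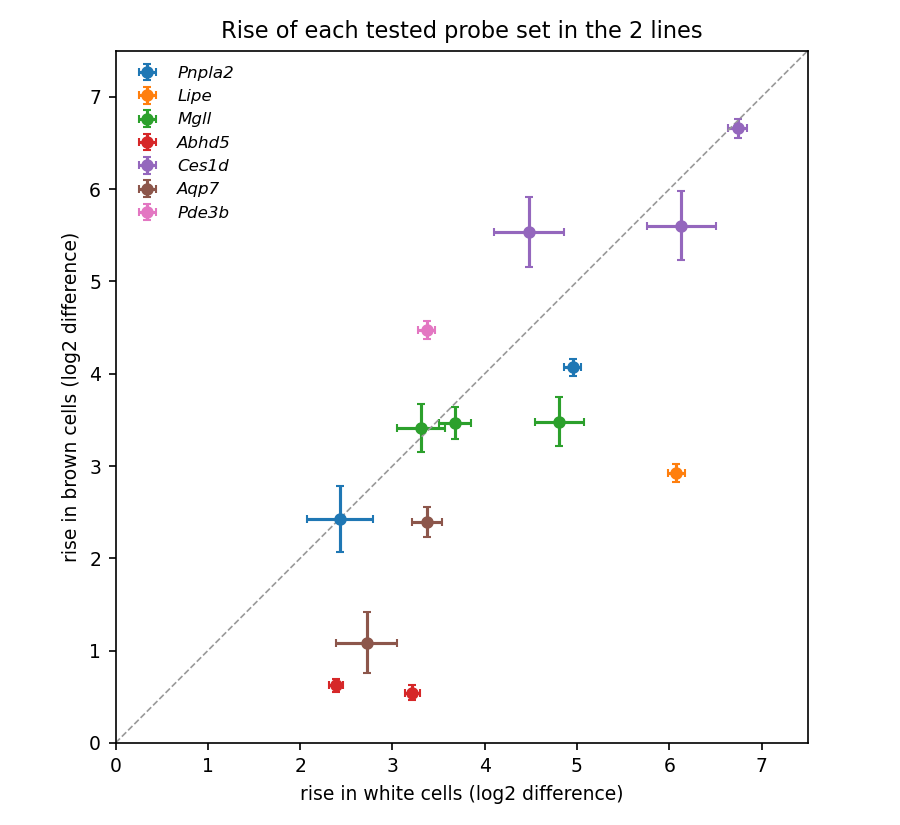
Log2 change in brown differentiation against that in white differentiation for each of the 14 tested probe sets of the 7 genes, with bars of 1 SE and a dashed line of equal change. All points lie above 0 on both axes, and the Abhd5 and Lipe points lie far to the white side of the line while Pde3b lies on the brown side. Both Aqp7 points also lie on the white side. A Ces1d point (4.48 in white, 5.54 in brown cells) lies on the brown side, with an interaction that was not called.

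Around these genes, 125 further genes of lipolytic control were listed, of which 109 had a single-symbol probe set and 96 were tested. In white differentiation 51 were called higher and 26 lower, and in brown differentiation 54 higher and 19 lower, beside medians of 0.55 and 0.53. As shares these were 53.1% and 27.1% in white cells, against 30.0% and 31.2% of all genes, and 56.2% and 19.8% in brown cells, against 27.2% and 31.5%. In the interaction 28.1% were called higher and 40.6% lower, against 23.6% and 27.4%. Between adipocytes 26.0% were higher in brown cells and 38.5% lower, against 30.0% and 29.5%, and between preadipocytes 39.6% were higher and 25.0% lower, against 31.1% and 23.8%. Where a gene named here was dim on every array of a group, the size of its log2 change depends on the pseudocount, and a lower bound against the dim level is given as a fold for the main ones.

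Of 12 tested receptors for hormones and metabolites, 9 rose in each line, with 3 called lower in white and 2 in brown cells. These were 75.0% higher and 25.0% lower in white cells, against 30.0% and 31.2% of all genes. In brown cells the shares were 75.0% and 16.7%, against 27.2% and 31.5% of all genes. Mc2r, the receptor for the lipolytic hormone ACTH, went from 8.17 ± 6.94 to 2348 ± 128 in white cells (log2 change 6.65, SE 0.200, adjusted p = 1.24e-09) and rose by 4.45 in brown cells (SE 0.200, adjusted p = 3.14e-08). Its white preadipocyte arrays were dim, and the white rise was at least 70.2-fold. The antilipolytic receptors Hcar2 and Ffar2, which respond to ketone bodies and short-chain fatty acids, rose by 6.37 and 5.10 in white cells (adjusted p = 9.60e-08 and 1.81e-10) and by 2.69 and 1.16 in brown cells. Npr3, the clearance receptor for natriuretic peptides, fell by 4.25 in brown cells (SE 0.114, adjusted p = 1.15e-09) and by 0.67 in white cells, an interaction of −3.59 (adjusted p = 6.72e-08). Ptger4, a prostaglandin E receptor, fell by 2.90 in white and 1.76 in brown cells. The neuropeptide Y receptor Npy1r fell by 1.42 in white cells (adjusted p = 0.00413) and was not called in brown cells (−0.08, adjusted p = 0.866). Npy1r was dim on every brown array, so its brown value is one between dim signals.

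G proteins, adenylyl cyclases and desensitising proteins numbered 14 tested, with 35.7% called higher and 28.6% lower in white cells, near the shares of all genes (30.0% and 31.2%), and 35.7% and 14.3% in brown cells (27.2% and 31.5% of all genes). Rgs2, a regulator of G protein signalling, rose by 4.62 in white and 2.51 in brown cells. The cyclase Adcy5 rose by 2.27 in brown cells (SE 0.277, adjusted p = 4.85e-05) and was not called in white cells (0.36, adjusted p = 0.293), an interaction of 1.91 (adjusted p = 0.00227). Adcy9 rose by 1.10 in brown cells, and Adcy7 fell by 1.96 in white cells. The inhibitory subunits Gnai2 and Gnai3 fell by 0.84 and 0.77 in brown cells and by 0.75 and 0.68 in white cells.

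Of 11 genes of protein kinases A and G with their anchors and inhibitors, 3 rose and 7 fell in white cells and 4 rose and 7 fell in brown cells. The white shares were 27.3% higher, near the 30.0% of all genes, and 63.6% lower, against 31.2% of all genes. The brown shares were 36.4% higher and 63.6% lower, against 27.2% and 31.5% of all genes. The catalytic subunit Prkaca rose by 0.80 in white and 0.65 in brown cells, and the regulatory subunit Prkar2b by 0.93 and 0.37. The mitochondrial anchor Akap1 rose by 1.32 in brown cells. Its white signal also went up, from 680 ± 11.4 to 1400 ± 114 (SD, n = 3). Prkg1, the kinase of the cyclic GMP branch, fell by 3.56 in brown cells (SE 0.194, adjusted p = 1.20e-07) and by 0.52 in white cells. The kinase inhibitor Pkia fell by 2.09 and the regulatory subunit Prkar1b by 2.02 in brown cells. In white cells the Pkia signal also went down, from 1148 ± 28.1 to 308 ± 37.1 (SD, n = 3).

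Pde3b stood beside 12 other tested phosphodiesterases, of which 4 rose and 3 fell in white cells and 6 rose and 2 fell in brown cells, with medians of −0.01 and 0.53. The white shares, 33.3% and 25.0%, were near those of all genes (30.0% and 31.2%), and in brown cells 27.2% and 31.5% of all genes were called higher and lower. Pde3a, its closest relative, was too dim to test, with signals of 3.27 to 45.1 over all arrays. Pde7b rose by 1.74 in brown cells (SE 0.402, adjusted p = 0.00363) and Pde8a by 0.96 (SE 0.0826, adjusted p = 3.51e-06). Pde1a moved in opposite directions, up by 0.79 in white cells (SE 0.106, adjusted p = 7.73e-05) and down in brown cells (−1.37, SE 0.106, adjusted p = 1.55e-06). Pde8b fell by 1.38 in white cells and Pde7a by 0.87 in brown cells. In white cells the Pde7a signal also went down, from 971 ± 49.0 to 688 ± 51.2 (SD, n = 3).

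Regulators of the lipases and droplet proteins rose in 10 of 15 cases in each line. In white cells 1 of the others fell, and in brown cells the other 5 did not pass the test. As shares, 66.7% were called higher in each line, and 6.7% lower in white cells. Of all genes, 30.0% were called higher and 31.2% lower in white cells, and 27.2% and 31.5% in brown cells. G0s2, the inhibitor of the Pnpla2 lipase, gave 3.24, 5.26 and 1.29 in white preadipocytes and 24080, 24926 and 22682 in white adipocytes. In brown cells its signals were 4719, 4828 and 4540 before and 12580, 14450 and 13542 after differentiation. The white preadipocyte arrays were dim, and all other arrays were bright. The log2 change was 10.28 in white and 1.52 in brown cells, an interaction of −8.76 (SE 0.122, adjusted p = 1.50e-10). Against the dim level the white rise was at least 715-fold, and the exact white change and interaction are set by the pseudocount. Hilpda, another inhibitor of that lipase, rose by 1.75 in white cells (SE 0.157, adjusted p = 3.68e-06) and was not called in brown cells (0.23, adjusted p = 0.228), an interaction of −1.52 (adjusted p = 0.000249). The droplet proteins Cidec and Cidea rose most in different lines: Cidec by 9.75 in white and 3.44 in brown cells, and Cidea by 8.07 in brown and 1.39 in white cells. Each started dim in the line of its larger rise, and the bounds are at least 713-fold for Cidec in white and at least 172-fold for Cidea in brown cells. Plin3, another droplet coat protein, fell by 0.62 in white cells.

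**Figure D4:**
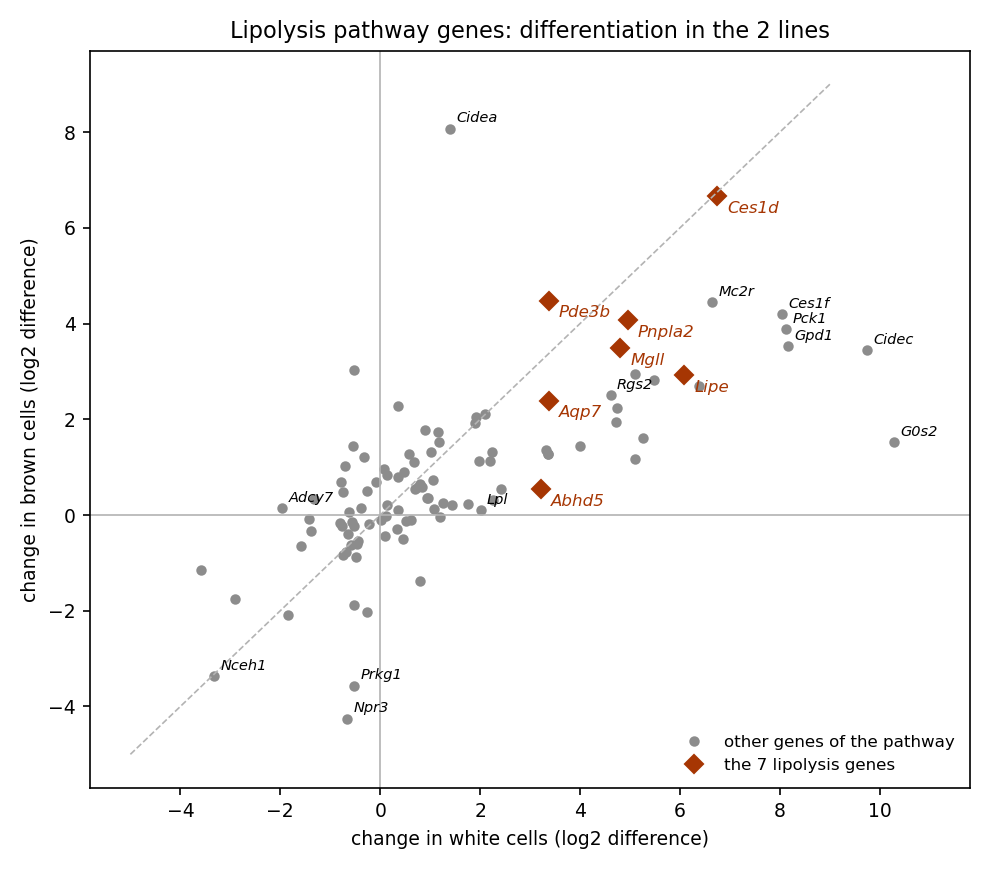
Log2 change in brown differentiation against that in white differentiation for the tested genes of lipolytic control and for the 7 lipolysis genes, with some of the genes in the text named and a dashed line of equal change. The 7 genes lie above 0 on both axes, G0s2 and Cidec lie far to the right of the line, and Cidea lies above it.

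Of 17 other lipases and ester hydrolases tested, 10 rose and 5 fell in white cells and 10 rose and 4 fell in brown cells. The share called higher was 58.8% in each line, against 30.0% of all genes in white and 27.2% in brown cells. The share called lower was 29.4% in white cells, near the 31.2% of all genes, and 23.5% in brown cells, against 31.5%. Ces1f and Ces1g, relatives of Ces1d, moved apart: Ces1f rose by 8.04 in white and 4.19 in brown cells, and Ces1g fell by 3.58 in white and 1.16 in brown cells. Pnpla3 and Pnpla8, relatives of Pnpla2, rose by 4.74 and 2.24 in white cells and by 2.24 and 1.31 in brown cells. Lpl, the lipoprotein lipase that takes fatty acids in from the circulation, rose by 2.01 in white cells (SE 0.116, adjusted p = 1.27e-07). It was not called in brown cells (0.11, adjusted p = 0.452), where its signal was 26271 ± 2884 before and 28216 ± 358 after differentiation, and the interaction was −1.90 (adjusted p = 6.13e-06). Nceh1, a cholesterol ester hydrolase, fell by 3.36 in brown and 3.33 in white cells, and the endothelial lipase gene Lipg fell by 0.77 in white cells.

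Beyond the lipases, 4 of 6 genes that handle glycerol and fatty acids after release rose in each line. In white cells 1 of the others fell, and in brown cells the other 2 did not pass the test. As shares, 66.7% were called higher in each line, and 16.7% lower in white cells. Of all genes, 30.0% were called higher and 31.2% lower in white cells, and 27.2% and 31.5% in brown cells. The glycerol phosphate dehydrogenase Gpd1, the glyceroneogenic enzyme Pck1 and the triglyceride synthase Dgat2 rose by 8.16, 8.12 and 5.49 in white cells and by 3.53, 3.88 and 2.83 in brown cells. Gpd1 and Pck1 were dim in white preadipocytes, and their white rises were at least 282-fold and at least 161-fold. The glycerol channel Aqp3 fell by 1.32 in white cells (adjusted p = 0.00833). Of 9 genes of the insulin branch that acts on Pde3b, 6 rose and 2 fell in each line. These were 66.7% higher and 22.2% lower, against the shares of all genes just given. Abhd15, a partner of Pde3b, rose by 5.25 in white and 1.61 in brown cells, unlike Pde3b itself, whose rise was the larger in brown cells. The insulin receptor Insr rose by 2.05 in brown and 1.91 in white cells, and the adaptor Irs2 by 1.78 and 0.89. The kinase Akt1 fell by 1.58 in white and 0.65 in brown cells, and the lipid kinase subunit Pik3ca by 0.53 and 0.22.

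For each of the 7 genes the 2 tested genes with the most similar pattern over the 4 group means were found, by the root mean square difference of centred log2 values. This is a description over 4 points. Lipe was closest to Fcor (0.164) and to Dgat2 (0.217), Pnpla2 to Scd3 (0.269) and Amy1 (0.296), and Abhd5 to Cyp2c70 (0.124) and Psen2 (0.138). Pde3b was closest to Coq8a (0.209) and Slc36a2 (0.277), and Aqp7 to Pygl (0.183) and Mreg (0.284). The nearest genes of Mgll, Klb (0.443) and Rgs2 (0.446), and of Ces1d, Tlcd3b (0.457) and Cox8b (0.492), were farther off.

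On GRCm38, Pnpla2 lies at chr7:141455188-141460743, Lipe at chr7:25379527-25398486 and Pde3b at chr7:114415222-114537938, all on chromosome 7. Mgll lies at chr6:88724412-88828360, Abhd5 at chr9:122351616-122381524, Ces1d at chr8:93166072-93197804 and Aqp7 at chr4:41033074-41048237. The array files name no build, and these positions come from the RefSeq gene table.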

How the data were processed

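Each deposited file column held linear intensities, 1 value for each probe set, and per the submitters' processing notes the authors used Affymetrix Expression Console. The summarisation algorithm is not given in the sources used here. RNA was amplified from the 3' end into biotin-labelled cRNA, per the labels' protocols. Trimmed by 2% at both ends, the array means were 500.003 to 500.004, so a change in total RNA per cell cannot be seen.

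Of 45101 probe sets, 34958 carried 1 symbol, and the probe set with the highest mean log2 signal stood for each gene. Genes above the 40th percentile on at least 3 of 12 arrays were tested (13746 genes). Signals were transformed as log2(signal + 16) and fitted with limma 3.58.1 in R 4.3.3 as 4 group means (8 residual and 1.81 prior degrees of freedom), with two-sided p-values adjusted by Benjamini-Hochberg over all genes tested. The code of the fit was run on simulated data with few changed genes and independent noise. Such a run checks the code and not the calls made here.

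The genes and lists were chosen with earlier results of these data known. The text names all 7 genes, from each list up to 3 genes with the largest rise and 3 with the largest fall in either differentiation among called genes, G0s2, Hilpda, Lpl and Pde3a always, and the 2 nearest genes. Plin1 and Gk, also in this rule, were not analysed here. Plin5 was named after its values were seen. Alternatives were the pseudocount, scaling, filter, probe set choice, moderation, threshold, a replicate block and each array left out. Fits of single probe sets and lower bounds against the 40th percentile of each array were added after seeing the data. Promoter windows came from the RefSeq table of GRCm38.p6 and were searched with Python 3.11.15 on both strands.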

Additional observations from a re-analysis of the deposited data

Results flagged for a closer look

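The rise with differentiation differed between the lines, by the interaction term of the limma fit (brown change minus white change, log2 scale), for 6 of the 7 lipolysis genes and for 3 of the further genes named by rule. Lipe (−3.15), Abhd5 (−2.67), Mgll (−1.33), Aqp7 (−0.98) and Pnpla2 (−0.88) had values under 0, and Pde3b (1.10) a value above 0. Other probe sets gave −0.21 and 0.10 for Mgll and −0.01 for Pnpla2, and a pseudocount of 64 gave −0.03 for Aqp7. G0s2 (−8.76), Lpl (−1.90) and Hilpda (−1.52) also had values under 0, with the size for G0s2 set by the pseudocount since its white preadipocyte arrays were dim. In the same test 27.4% of all genes were called lower and 23.6% higher.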

How the results depend on the processing

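The rises of all 7 genes in both lines were called under every alternative that gave a value, as were the interactions of Lipe, Abhd5 and Pde3b. Mgll gave no value when less specific probe sets were left out, since its remaining probe set was too dim, and the fit of only the arrays compared gives no interaction. The 5 genes lower in the interaction became 3 with a pseudocount of 64, with the mean of all probe sets and with less specific probe sets left out. Leaving those out also took the genes higher in brown adipocytes from 4 to 2 and the further genes called lower in brown differentiation from 19 to 11. The 2 genes lower in brown adipocytes became 1 under hybridization-control scaling and with the mean of all probe sets. The Ces1d interaction of −0.08 turned to 0.114 (pseudocount 64), 0.0399 (quantile normalization), 0.0348 (equal medians), 0.0325 (hybridization controls), 0.150 (mean of all probe sets) and 1.06 (1 probe set alone), and ran from −0.142 to 0.0260 with single arrays left out, its sign turning without white preadipocyte replicate 1. None of these was called, and the Mgll interaction turned to 0.103 with 1 probe set alone. The cause was not tested. Leaving out single arrays gave 4 to 5 genes higher in brown adipocytes and 6 to 7 higher in brown preadipocytes, with Ces1d, dim there, included. Same-numbered arrays did not deviate together (correlations −0.03 to 0.03). With a replicate block the members called were 7 and 7 in the differentiations, 1 higher and 5 lower in the interaction, and no member call changed. Dim preadipocyte signals limit the sizes for Ces1d, Hcar2 and Cidea in both lines and for Ces1f in brown cells. They also do so for Aqp7, Mgll, G0s2, Gpd1, Pck1, Mc2r and Cidec in white cells. Bounds not given above are at least 9.17-fold for Ces1f and 5.34-fold for Hcar2 in brown cells. In white cells they are at least 64.8-fold for Hcar2 and 1.69-fold for Cidea. Dim adipocyte signals limit the falls of Ces1g in both lines, Pde8b and Lipg in white cells and Nceh1 in brown cells. Signals around the dim level also limit the falls of Prkg1 in brown cells (38.9 ± 13.3 in adipocytes) and Npy1r in white cells (34.2 ± 10.4). The same holds for the brown rises of Pde7b (23.2 ± 19.1 in preadipocytes) and Mc2r (27.5 ± 9.37; SD, n = 3). The 3 arrays per group limit precision throughout.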

Other observations

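Plin5, a droplet protein that binds the Pnpla2 lipase and its coactivator, was at 362, 413 and 370.4 in brown adipocytes and at 59.0 or less on every other array. Pde8a, a cyclic AMP phosphodiesterase, followed the line: 55.3 ± 7.46 and 59.0 ± 5.21 in white preadipocytes and adipocytes, and 980.1 ± 15.0 and 1920.1 ± 55.6 in brown preadipocytes and adipocytes (SD, n = 3). Pde1a was highest in brown preadipocytes (1635 ± 34.0) and lower in the other groups (614 ± 43.0 in white preadipocytes, 1075 ± 27.9 in white adipocytes and 627 ± 108 in brown adipocytes).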
